A study of Mus musculus with 6 samples.

Results

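The aryl hydrocarbon receptor pathway and its CYP1 enzymes were described here by 6 genes, Ahr, Arnt, Tiparp, Cyp1a2, Cyp1a1 and Cyp1b1. Each was taken as the row of the deposited gene table that carries its symbol, and all 6 were found among 33495 genes listed, of which 19594 had counts. The libraries came from livers of 3 SHP knockout mice (labelled SHP -/-) and 3 wild-type mice, all male, aged 2 months and of C57BL6 background. SHP is the small heterodimer partner, the orphan nuclear receptor made from Nr0b2, which lacks a DNA-binding domain and acts as a corepressor of other nuclear receptors in liver. The labels name no treatment or inducing agent for either group, and they do not say how the allele was made, whether the deletion is limited to a cell type, or whether the animals were littermates. Nothing in the labels ties libraries to separate litters or days, so p-values measure the spread between these libraries. RNA with a 5′ cap was selected from total RNA with a high-affinity form of the cap-binding protein EIF4E, and was read from both ends for 36 cycles with 3 libraries in each lane. The assignment of libraries to lanes was not given in the sources used here, and lane and genotype therefore cannot be told apart. The question put to the data was whether the receptor, its partner, its feedback enzyme and the CYP1 enzymes differ in transcript level in liver without SHP.

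AHR is a ligand-activated transcription factor of the bHLH-PAS family that waits in the cytoplasm with HSP90 and other chaperones. With a ligand such as a dioxin or a planar aromatic hydrocarbon it moves to the nucleus, pairs with ARNT and binds DNA elements with the core GCGTG, known as xenobiotic response elements. CYP1A1, CYP1A2 and CYP1B1, the haem enzymes that oxidise aromatic hydrocarbons and amines, are its best-known targets, and TIPARP is a target that ADP-ribosylates AHR and limits its activity. In liver CYP1A2 is made constitutively, mainly by hepatocytes around the central vein, whereas CYP1A1 is known for its low level until a ligand is present.

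The promoters of the CYP1A pair and of Tiparp are shown because these are the abundant enzyme, its neighbour with few counts and the feedback enzyme whose levels are set side by side below. RefSeq sequences were available for 5 of the 6 members, and that of Ahr was not used here. Each is 300 bases long, from 250 before to 50 after the annotated start, on the gene's own strand and in build GRCm38.p6, which is later than the mm9 build of the counts. Capitals mark the response-element core GCGTG, searched on both strands and so also printed as CACGC, and the TATA-box letters TATAAA, searched as written and in reverse complement. The Cyp1a1 window is chr9:57697363-57697662 on the plus strand, the Cyp1a2 window chr9:57683606-57683905 on the minus strand, and the Tiparp window chr3:65528197-65528496 on the plus strand.
Cyp1a1: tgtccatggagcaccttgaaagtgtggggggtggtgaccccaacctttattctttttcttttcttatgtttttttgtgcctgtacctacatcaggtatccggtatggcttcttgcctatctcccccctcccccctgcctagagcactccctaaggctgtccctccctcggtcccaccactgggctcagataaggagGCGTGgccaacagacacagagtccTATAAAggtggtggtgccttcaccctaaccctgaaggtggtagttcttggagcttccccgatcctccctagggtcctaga
Cyp1a2: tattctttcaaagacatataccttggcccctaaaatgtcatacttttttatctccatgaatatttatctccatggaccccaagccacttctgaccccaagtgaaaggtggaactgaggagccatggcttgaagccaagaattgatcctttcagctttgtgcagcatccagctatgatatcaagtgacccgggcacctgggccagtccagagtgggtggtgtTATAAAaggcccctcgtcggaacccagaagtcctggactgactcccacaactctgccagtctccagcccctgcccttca
Tiparp: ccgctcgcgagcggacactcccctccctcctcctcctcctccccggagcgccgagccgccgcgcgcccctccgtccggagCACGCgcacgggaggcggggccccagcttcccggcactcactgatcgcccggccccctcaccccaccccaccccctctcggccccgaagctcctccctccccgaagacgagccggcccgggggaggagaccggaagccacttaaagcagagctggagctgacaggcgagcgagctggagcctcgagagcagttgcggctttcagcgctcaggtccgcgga

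The Cyp1a1 window held 1 core, beginning 54 bases before the start, and TATAAA 30 bases before it. The Cyp1a2 window held TATAAA 29 bases before the start and no GCGTG on either strand, which says only that these letters are not in this window. In the Tiparp window the core lay on the opposite strand, 170 bases before the start. In the windows not printed, the core began 29 bases before the start in Arnt and 76 bases before it, on the opposite strand, in Cyp1b1. The core was present in 32.4% of 32851 promoters of this length and TATAAA in 13.6%, so a match is common and marks no site by itself. The starts of Cyp1a1 and Cyp1a2 lie 13958 bases apart and face away from each other.

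Cyp1a1 and Cyp1a2 are close copies, which bears on how reads of 36 cycles can be assigned between them. Of 2751 distinct 36-base words in Cyp1a1 transcripts of GENCODE M21, 135 (4.91%) also occur in another gene, and of 1977 in Cyp1a2 transcripts 135 (6.83%) do, all of them shared between this pair. The longest stretch that a GENCODE transcript of Cyp1a1 has in common with one of Cyp1a2 is 137 bases, at positions 294 to 430 of the Cyp1a1 transcript and from position 291 of the Cyp1a2 transcript, numbered from the 5′ end and inside the coding sequence of both. It is printed because a read lying wholly within it fits either enzyme equally well. It holds no capitals.
Shared by Cyp1a1 and Cyp1a2: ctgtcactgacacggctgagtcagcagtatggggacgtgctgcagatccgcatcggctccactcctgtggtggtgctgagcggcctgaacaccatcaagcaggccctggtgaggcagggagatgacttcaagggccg

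Levels are given as CPM, the count of a gene relative to the library total after scaling by trimmed means of M values. Library totals ran from 4494353 to 7225842 counts. The filter kept the 11794 genes with 1.83 CPM or more (10 counts at the median library) in 3 or more libraries, and these were tested with limma voom at a Benjamini-Hochberg adjusted p under 0.05. Of these, 1713 (14.5%) passed, with 894 (7.58%) higher and 819 (6.94%) lower in knockout liver. The number called was 1061 with knockout library 1 left out and 629 with wild-type library 3 left out. Mitochondrially encoded genes took 6.50% ± 0.753 of counts in knockout libraries and 10.2% ± 0.0617 in wild-type libraries (SD, n = 3 each). The ranges did not overlap, with 5.66% to 7.10% in knockout and 10.16% to 10.29% in wild type. Leaving these genes out changed no member's log2 difference by as much as its standard error. Whether the share reflects the preparation of the libraries was not tested, and leaving the genes out does not test it. Nr0b2 transcripts, the check of the labels, were at 6.62, 7.07 and 10.3 CPM in knockout libraries, against 17.7, 12.3 and 13.5 CPM in wild-type libraries. They were thus lower but present in all 3 knockout libraries, with a log2 difference of −0.81 ± 0.25 (SE; limma voom, adjusted p = 0.0442). Of the 6 fits that left out a library, the call held in 1, the fit without knockout library 3 (−1.06, adjusted p = 0.0352), and the adjusted p was up to 0.122 in the others. Of the 8 other settings it held in 5. It was lost with library totals only (limma voom, adjusted p = 0.0536), without the filter on low counts (0.0667) and with the replicate number as a block (0.0552).

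No member passed the threshold in knockout liver. Cyp1a2 was abundant, with at least 731 CPM in every library, and Cyp1a1 and Cyp1b1 had 16 counts or fewer in each library of both genotypes. Ahr had the lowest adjusted p of the members, with a fitted level in knockout liver 0.801 times that of wild type (95% interval 0.648 to 0.991). Of the 6 members, 4 were tested and 2, Cyp1a1 and Cyp1b1, lay below the filter. None of the 4 was called, against 14.5% of all genes tested, and in none did the knockout and wild-type libraries fail to overlap, against 35.1% of all genes tested. Of the 4, 1 (Ahr) had an unadjusted p under 0.05, as had 3606 (30.6%) of all genes. The median log2 difference of the 4 was 0.10, beside −0.01 for all genes.

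**Figure D1:**
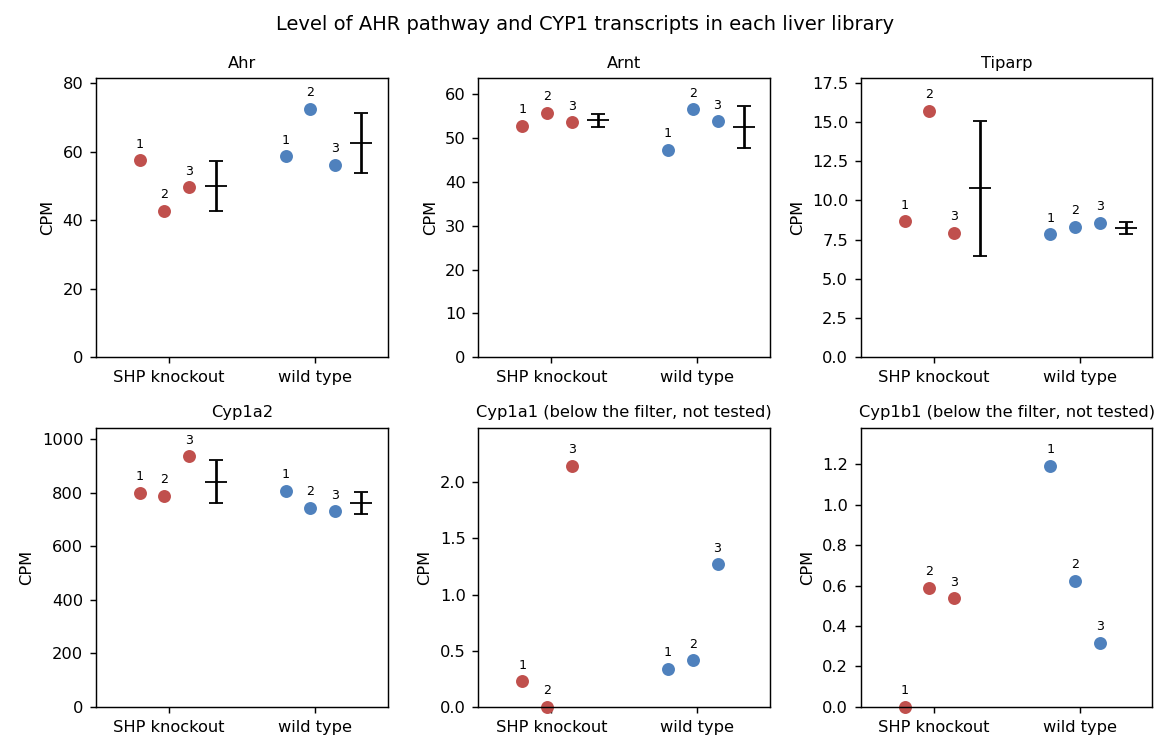
Level of each member in each library in CPM, with knockout libraries in red and wild-type libraries in blue. Numbers are replicates, and the bar to the right of each group is the mean ± SD (n = 3) of tested members. Cyp1a2 sits between 731 and 935 CPM in all 6 libraries, Ahr and Arnt between 42.8 and 72.5 CPM, and Cyp1a1 and Cyp1b1 at 2.15 CPM or less. Knockout library 2 stands apart for Tiparp.

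Ahr (ENSMUSG00000019256, mm9 chr12:36182651-36219710, minus strand) encodes the receptor itself. Its counts were 252, 218 and 370 in knockout libraries and 344, 349 and 354 in wild-type libraries. The level was 57.5, 42.8 and 49.7 CPM in knockout liver, against 58.7, 72.5 and 56.2 CPM in wild-type liver. Knockout libraries 2 and 3 lay below all wild-type libraries, while knockout library 1 lay above wild-type library 3, so the groups overlapped by this pair. The means were 50.0 ± 7.38 CPM in knockout and 62.5 ± 8.81 CPM in wild type (SD, n = 3 each). The limma voom fit gave a log2 difference of −0.32 ± 0.14 (SE, adjusted p = 0.146), with a 95% interval from −0.63 to −0.01. It lay below 0 in 14 of 14 alternative fits, and in none of them did it pass the threshold, with adjusted p from 0.116 to 0.422. It moved to −0.21 without knockout library 2 and likewise without wild-type library 2.

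Arnt (ENSMUSG00000015522, mm9 chr3:95238310-95301159, plus strand) encodes the nuclear partner that AHR needs to bind DNA, and which hypoxia-inducible factors share. Counts were 231, 284 and 399 in knockout libraries and 277, 272 and 339 in wild-type libraries. The level was 52.8, 55.8 and 53.6 CPM in knockout liver, against 47.3, 56.5 and 53.8 CPM in wild-type liver. All 3 knockout libraries lay within the range of the wild-type libraries. The means were 54.0 ± 1.56 CPM in knockout and 52.5 ± 4.78 CPM in wild type (SD, n = 3 each), the narrowest spread of the tested members in knockout liver. The log2 difference of 0.05 ± 0.12 (SE; limma voom, adjusted p = 0.831) had a 95% interval from −0.21 to 0.31, which is 0.863 to 1.24 times wild type. Without wild-type library 1 it was −0.03.

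Tiparp (ENSMUSG00000034640, mm9 chr3:65332332-65359067, plus strand) encodes the ADP-ribosyltransferase that acts in feedback on AHR. Counts were low, at 38, 80 and 59 in knockout libraries and 46, 40 and 54 in wild-type libraries. The level was 8.68, 15.7 and 7.92 CPM in knockout liver, against 7.85, 8.31 and 8.57 CPM in wild-type liver. Only knockout library 2 departed from the others, and the remaining 5 libraries lay between 7.85 and 8.68 CPM. The means were 10.8 ± 4.29 CPM in knockout and 8.25 ± 0.369 CPM in wild type (SD, n = 3 each). The limma voom fit gave a log2 difference of 0.28 ± 0.28 (SE, adjusted p = 0.542), with a 95% interval from −0.32 to 0.88. This estimate was decided by that library, since leaving out knockout library 2 gave 0.0021 and leaving out knockout library 3 gave 0.53. The antisense gene 4931440P22Rik overlaps the start of Tiparp and had 23 counts over the 6 libraries, and without knowledge of the strand the reads of this overlap cannot be assigned.

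The immediate-early genes Fos, Egr1 and Junb, which are induced within minutes of a stimulus, were also highest in knockout library 2. They were chosen after their values were seen, and their part in the Tiparp level was not tested. Fos, a subunit of the AP-1 transcription factor, was at 44.8, 263 and 5.24 CPM in knockout liver, against 2.22, 3.33 and 31.4 CPM in wild-type liver. Egr1, a zinc-finger transcription factor, was at 59.6, 456 and 24.8 CPM in knockout liver, against 18.6, 13.7 and 27.0 CPM in wild-type liver. Junb, which pairs with FOS, was at 51.6, 156 and 29.0 CPM in knockout liver, against 15.4, 15.2 and 12.9 CPM in wild-type liver. Junb was called higher in knockout liver, with a log2 difference of 2.04 ± 0.55 (SE; limma voom, adjusted p = 0.0246). Whether this call holds without knockout library 2 was not tested. Fos (2.32, adjusted p = 0.350) and Egr1 (2.11, adjusted p = 0.130) were not called by the same fit.

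Cyp1a2 (ENSMUSG00000032310, mm9 chr9:57524744-57531462, minus strand) encodes the constitutive hepatic enzyme that metabolises caffeine and aromatic amines. Counts were 3499, 4016 and 6965 in knockout libraries and 4734, 3569 and 4601 in wild-type libraries. The level was 799, 789 and 935 CPM in knockout liver, against 808, 742 and 731 CPM in wild-type liver. Knockout library 3 was the highest and knockout libraries 1 and 2 lay below wild-type library 1, so the groups overlapped. The means were 841 ± 81.7 CPM in knockout and 760.0 ± 41.5 CPM in wild type (SD, n = 3 each). The limma voom fit gave a log2 difference of 0.14 ± 0.10 (SE, adjusted p = 0.368). Its 95% interval, from −0.07 to 0.36, corresponds to 0.950 to 1.29 times wild type, which is the narrowest interval of the tested members. Without knockout library 3 the log2 difference was 0.07.

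Cyp1a2 is known as a pericentral gene, so the zonal markers were read beside it. Summed over the 8 pericentral markers, the level ran from 8829 to 10192 CPM in knockout libraries and from 8625 to 10551 CPM in wild-type libraries. Most of this sum was Cyp2e1, whose log2 difference was −0.07, and Glul was at 0.0053. Of the 8, Cyp7a1 (2.13) and Oat (0.68) were higher and Rgn (−0.59) was lower in knockout liver on the log2 scale. Lgr5 (−0.53) had a lower estimate but did not pass the threshold (limma voom, adjusted p = 0.142). Its groups did not overlap, as in 35.1% of all genes tested. The 6 periportal markers summed to 4732 to 5235 CPM in knockout and 4703 to 5153 CPM in wild type, and the 4 general hepatocyte markers to 64671 to 71746 CPM in knockout and 57999 to 77867 CPM in wild type. Of the periportal markers Sds (0.90) and Gls2 (0.41) were higher and Cyp2f2 (−0.57) was lower in knockout liver, and of the general markers Tat (−0.35) was lower. The ranges of the groups overlapped for all 3 sums, and most of the general hepatocyte sum was Alb, whose log2 difference was 0.05. Yet 7 of these 18 markers were called, 37.5% of the pericentral, 50% of the periportal and 25% of the general markers, beside 14.5% of all genes. The part of these changes in the Cyp1a2 level was not tested. In bulk tissue, fewer cells of a type and less RNA per cell cannot be told apart.

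Cyp1a1 (ENSMUSG00000032315, mm9 chr9:57499192-57551628, plus strand), the classical inducible target of AHR, had few counts. They were 1, 0 and 16 in knockout libraries, 17 in sum, and 2, 2 and 8 in wild-type libraries, 12 in sum. The level was 0.228, 0 and 2.15 CPM in knockout liver, against 0.341, 0.416 and 1.27 CPM in wild-type liver. A count of 0 in knockout library 2 would allow a level of up to 0.589 CPM, the value of 3 counts there, if counts were independent. They are not independent fragments, as described under processing, so this limit can be too low even for counting error. In each group library 3 held most of the counts, 16 of 17 in knockout and 8 of 12 in wild type, and equal numbers mark no shared origin in the labels. With the filter removed, the limma voom fit gave a log2 difference of −0.63 ± 0.98 (SE, adjusted p = 0.749 over 19594 genes), whereas the sum of counts and the authors' deposited table, with a log2 ratio of 0.19, lay the other way. No direction was read from these counts.

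The table's span of Cyp1a1 is 52437 bases long and encloses all 6719 bases of Cyp1a2, on the opposite strand. In GENCODE M21, on GRCm38, the span of Cyp1a1 is 15897 bases and does not reach Cyp1a2. The use of strand in counting and the treatment of reads that match both genes were not given in the sources used here. For the few Cyp1a1 counts, the same library held 435 times as many Cyp1a2 counts in knockout library 3 and 575 times as many in wild-type library 3. Whether some of the Cyp1a1 counts came from Cyp1a2 transcripts was not tested.

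Cyp1b1 (ENSMUSG00000024087, mm9 chr17:80106293-80114381, minus strand) encodes the family member known mainly from tissues other than hepatocytes, with stellate cells among its known hepatic sources. Its counts were 0, 3 and 4 in knockout libraries, 7 in sum, and 7, 3 and 2 in wild-type libraries, 12 in sum. The level was 0, 0.589 and 0.537 CPM in knockout liver, against 1.19, 0.624 and 0.318 CPM in wild-type liver, and the groups overlapped. The count of 0 in knockout library 1 would allow up to 0.685 CPM if counts were independent, a limit that can likewise be too low. With the filter removed the limma voom fit gave a log2 difference of −0.94 ± 0.86 (SE, adjusted p = 0.609), too wide for a direction.

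Knockout library 1, the library with no Cyp1b1 count, also had the lowest sums of stellate, endothelial, Kupffer cell, cholangiocyte and lymphocyte markers. For Kupffer cell markers the margin was narrow, 268 against 271 CPM in wild-type library 3. It was also the smallest library, with 4494353 counts. The 0.685 CPM that its count of 0 would allow for independent counts already lies above the Cyp1b1 levels of knockout libraries 2 and 3 (0.589 and 0.537 CPM). The 9 stellate and fibroblast markers summed to 206 to 413 CPM in knockout libraries and 387 to 426 CPM in wild-type libraries. Of the 9, 1, Rgs5 (−0.95), was called lower in knockout and none was called higher, a share of 11.1% beside 14.5% of all genes. The median log2 difference was −0.33. An unadjusted p under 0.05 was reached by 3 of them, Rgs5, Col1a1 (1.07) and Col1a2 (0.69), beside 30.6% of all genes. Both collagens had higher estimates in knockout and did not pass the threshold (limma voom, adjusted p = 0.0664 and 0.0811). Their groups did not overlap, as in 35.1% of all genes tested. The 7 sinusoidal endothelial markers summed to 309 to 478 CPM in knockout and 459 to 513 CPM in wild type. Of them 1 (14.3%), Lyve1, was called, higher in knockout (log2 difference 0.82 ± 0.22, limma voom, adjusted p = 0.0244). The median log2 difference of these 7 was −0.30, and 5 of them had an unadjusted p under 0.05, beside 30.6% of all genes. Besides Lyve1 these were Stab2 (−0.30), Clec4g (−0.40), Kdr (−0.42) and Fcgr2b (−0.56), which had lower estimates in knockout and did not pass the threshold. The 8 markers of Kupffer cells and macrophages summed to 268 to 424 CPM in knockout and 271 to 326 CPM in wild type. Of them 2 (25%), C1qa and Marco, were called, both higher in knockout. An unadjusted p under 0.05 was reached by 3 of the 8, C1qa, Marco and C1qb, of which C1qb (0.38) did not pass the threshold. The 4 cholangiocyte markers summed to 4.80 to 21.6 CPM in knockout and 8.52 to 11.9 CPM in wild type, and the 3 lymphocyte markers to 13.5 to 21.0 CPM in knockout and 18.4 to 22.3 CPM in wild type. Of these lists only 2 and 1 markers were tested, and none was called. No marker of these lists was at 0 in all libraries. The part of such cells in the Cyp1b1 counts was not tested.

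Levels were compared between members per length of exon, and the order was Cyp1a2, Ahr, Arnt and Tiparp in every library. CPM per kb of annotated exon was 444 ± 43.2 for Cyp1a2 in knockout and 402 ± 22.0 in wild type (SD, n = 3 each), rank 130 of 11794 tested genes over the 6 libraries. Ahr followed with 9.01 ± 1.33 CPM per kb in knockout and 11.3 ± 1.59 in wild type, at rank 4137. Arnt came next with 6.75 ± 0.195 CPM per kb in knockout and 6.56 ± 0.597 in wild type, at rank 5529. The order of Ahr above Arnt held in all 6 libraries, with an Ahr to Arnt ratio of 1.34 ± 0.233 in knockout and 1.72 ± 0.184 in wild type. Tiparp stood at 2.86 ± 1.14 CPM per kb in knockout and 2.19 ± 0.0981 in wild type, at rank 8625, below Arnt in every library. Cyp1a1 and Cyp1b1 were lowest, and their order differed between libraries, with Cyp1a1 per kb the higher in knockout libraries 1 and 3 and wild-type library 3 and Cyp1b1 in the others.

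**Figure D2:**
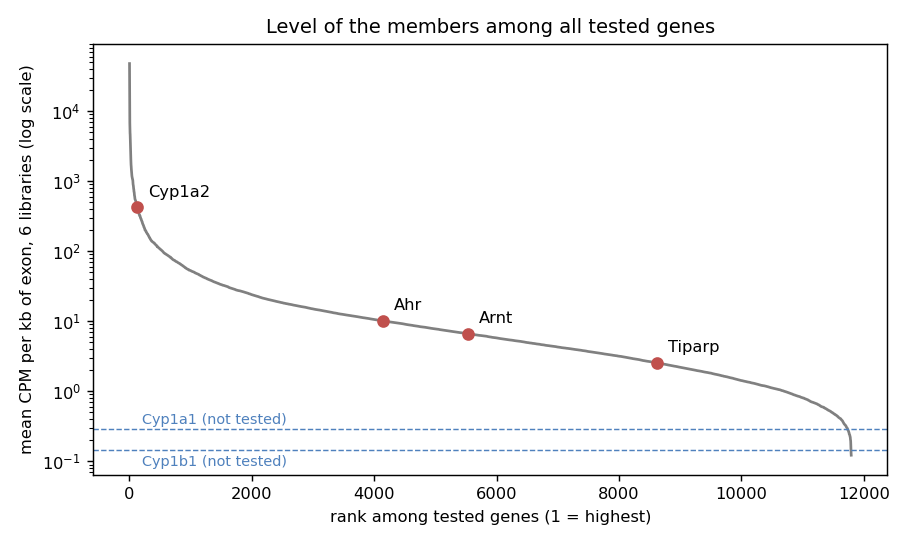
Mean level over the 6 libraries in CPM per kb of exon, on a log scale, against rank among the 11794 tested genes, where 1 is the highest. Red points are tested members, and dashed lines give the level of the 2 members below the filter, which have no rank. Cyp1a2 lies at rank 130, and Ahr, Arnt and Tiparp in the middle to lower range.

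Within the CYP1 family, Cyp1a2 made up nearly all transcripts per length in livers of both genotypes, 99.8% to 99.98% of the summed CPM per kb in knockout libraries and 99.8% to 99.92% in wild-type libraries. Set against its receptor, Cyp1a2 stood at 40.8, 54.1 and 55.2 times the level of Ahr per kb in knockout liver, and at 40.4, 30.0 and 38.1 times in wild-type liver. All 3 knockout libraries were above all wild-type libraries in this ratio, by 40.8 against 40.4 at the nearest, and the means were 50.0 ± 8.05 in knockout and 36.2 ± 5.46 in wild type (SD, n = 3 each). Neither gene's own level separated the groups or was called. Levels of single genes did separate the groups in 35.1% of all genes tested. The ratio was formed after both genes' values were known and was not tested.

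The RPKM values and log2 ratios of the authors' deposited table pool the 3 libraries of a group and have no SD. The authors' deposited table gave an RPKM of 295.5 for Cyp1a2 in knockout and 257.7 in wild type. For Ahr the authors' deposited table gave 5.84 RPKM in knockout and 7.12 in wild type, a log2 ratio of −0.31. The log2 ratios of the authors' deposited table were 0.05 for Arnt, 0.15 for Cyp1a2 and 0.38 for Tiparp. The adjusted p of the authors' deposited table, converted from its negative binomial scores, was 0.323 for Ahr, so no member passed at 0.05 there either.

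**Figure D3:**
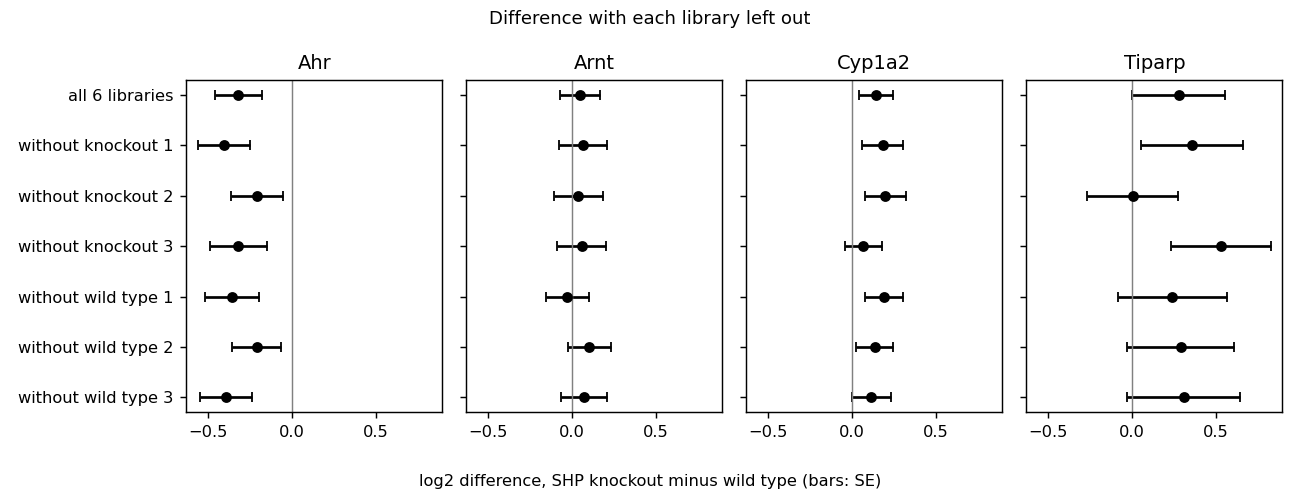
Log2 difference of the 4 tested members, knockout minus wild type, with all libraries and with each library left out in turn. Points are estimates and bars are their standard errors. Ahr lies below 0 and Cyp1a2 above 0 in every fit shown, Arnt falls on both sides, and Tiparp moves to 0.0021 without knockout library 2.

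Genes around the pathway were read in 4 lists, which hold 31 genes beside the members. Of these, 25 were tested, and 3 were higher, 3 were lower and 19 were not called in knockout liver, a share of 24% called beside 14.5% of all genes. With wild-type library 2 left out 3 list genes were called, and with wild-type library 3 left out 2 were. Of the calls, 2 lay in the list of electron donors and haem supply of cytochromes P450, 2 in that of other AHR battery genes, 2 in that of other sensors of foreign compounds and none in that of the receptor complex. Means of list genes are given ± SD (n = 3 each), and Nfe2l2 stands in both the battery list and the list of other sensors.

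The list of the receptor complex and of PAS-domain partners had 12 genes, of which 10 were tested and none was called. An unadjusted p under 0.05 was reached by 2 of these 10, 5 of 6 in the battery list, 3 of 6 in the supply list and 3 of 4 in the list of other sensors, beside 30.6% of all genes. The median log2 difference of the complex and its partners was 0.05, beside −0.01 for all genes. Hsp90ab1, the chaperone that holds AHR ready for ligand, was at 836 ± 159 CPM in knockout and 889 ± 52.5 CPM in wild type, a log2 difference of −0.11 ± 0.13 (SE; limma voom, adjusted p = 0.613). Ncoa2, a coactivator of nuclear receptors and PAS proteins, was at 99.5 ± 7.08 CPM in knockout and 96.8 ± 5.30 CPM in wild type (log2 difference 0.04 ± 0.11, limma voom, adjusted p = 0.838). Hif1a, the hypoxia factor that competes for ARNT, was named after its values were seen. It was at 45.2, 48.9 and 50.2 CPM in knockout liver, against 61.2, 65.9 and 59.9 CPM in wild-type liver. The groups did not overlap, as in 35.1% of all genes tested. The log2 difference of −0.36 ± 0.12 had an adjusted p of 0.0525 (limma voom), with a range over the alternatives from 0.0485, under the stricter filter on low counts, to 0.153. The other gene of this list with an unadjusted p under 0.05, Ncoa3, had a higher estimate in knockout, also without overlap (log2 difference 0.30 ± 0.12, limma voom, adjusted p = 0.109). It too was named after its values were seen. Ahrr, the repressor that AHR induces, had 0, 4 and 2 counts in knockout libraries and 0, 0 and 2 in wild-type libraries, and was not tested.

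Of the 10 other genes of the AHR battery, 8 had counts and 6 were tested, with none higher and 2 lower in knockout liver. The median log2 difference was −0.11. Ugdh, which makes the UDP-glucuronic acid used in glucuronidation, was at 171, 221 and 156 CPM in knockout liver, against 224, 268 and 282 CPM in wild-type liver. It fell by 0.51 on the log2 scale (SE 0.14; limma voom, adjusted p = 0.0244), with the groups separated by 221 against 224 CPM at the nearest, and the call was lost without knockout library 1 (adjusted p = 0.0747), knockout library 3 (0.0860), wild-type library 2 (0.0723) and wild-type library 3 (0.123). Ugt1a6a, a glucuronosyltransferase, was at 1016 ± 11.9 CPM in knockout and 1275 ± 40.9 CPM in wild type (SD, n = 3 each). It fell by 0.33 (SE 0.09; limma voom, adjusted p = 0.0272), and of the fits with a library left out the call held only in that without wild-type library 1 (adjusted p = 0.0369), with adjusted p up to 0.0991 in the others. The table's row for Ugt1a6a spans the whole Ugt1a cluster (mm9 chr1:89951963-90116577), whose enzymes share their last exons, so this is a level of the cluster and not of a single enzyme.

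Nqo1, a quinone reductase and classical member of the battery, was at 5.73 ± 1.71 CPM in knockout and 5.22 ± 0.925 CPM in wild type, a log2 difference of 0.12 ± 0.31 (SE; limma voom, adjusted p = 0.840). It was named after its values were seen. Nfe2l2, the NRF2 factor that shares targets with AHR, was at 38.2 ± 4.60 CPM in knockout and 48.7 ± 4.69 CPM in wild type (log2 difference −0.35 ± 0.14, limma voom, adjusted p = 0.110). Scd2, a fatty acid desaturase, was at 7.31, 9.03 and 11.8 CPM in knockout liver, against 5.97, 5.61 and 4.61 CPM in wild-type liver (log2 difference 0.84 ± 0.28, limma voom, adjusted p = 0.0620, and 0.0497 without knockout library 1). Cyp2s1, a P450 enzyme inducible by dioxin and named after its values were seen, was at 0.913, 3.14 and 2.28 CPM in knockout liver, against 1.88, 0 and 0.318 CPM in wild-type liver, and was not called (log2 difference 2.26 ± 0.90, limma voom, adjusted p = 0.106). The count of 0 in wild-type library 2 weighs on this value, which was 1.27 without that library and 1.49 under the limma trend model. Gsta1 and Gpr35 lay below the filter.

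Cytochromes P450, the CYP1 enzymes included, need electrons from POR and a haem group whose synthesis starts with ALAS1. Of 6 genes of this supply, all tested, 2 were higher and none was lower in knockout liver, and the median log2 difference was 0.25. Por was at 474, 441 and 379 CPM in knockout liver, against 308, 261 and 230 CPM in wild-type liver. The groups did not overlap, and Por rose by 0.70 ± 0.12 on the log2 scale (SE; limma voom, adjusted p = 0.00296), a call that held in 14 of 14 alternatives. Alas1 was at 556, 436 and 348 CPM in knockout liver, against 349, 185 and 136 CPM in wild-type liver, so that knockout library 3 and wild-type library 1 nearly coincided. It rose by 1.08 ± 0.26 (SE; limma voom, adjusted p = 0.0135), but the call was lost without wild-type library 3, where the log2 difference was 0.78 (adjusted p = 0.0907), without wild-type library 2 (0.0568), and under robust variance moderation (0.180). Pgrmc1, a haem-binding partner of P450 enzymes, was at 1117 ± 5.54 CPM in knockout and 1147 ± 90.3 CPM in wild type (log2 difference −0.03 ± 0.09, limma voom, adjusted p = 0.840). Cyb5a, listed as Cyb5 in the table, encodes the alternative electron donor cytochrome b5 and was at 662 ± 41.0 CPM in knockout and 583 ± 63.2 CPM in wild type, a log2 difference of 0.19 ± 0.11 (SE; limma voom, adjusted p = 0.249).

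Other sensors of foreign compounds, with a receptor partner, made up a list of 4 genes, all tested, of which 1 was higher and 1 was lower in knockout liver. The median log2 difference was −0.13. Nr1i3, which encodes the drug sensor CAR, was at 76.3, 63.4 and 108 CPM in knockout liver, against 152, 142 and 138 CPM in wild-type liver. It fell by 0.82 ± 0.16 on the log2 scale (SE; limma voom, adjusted p = 0.00465), with no overlap of the groups and with the call held in 14 of 14 alternatives. Rxra, the retinoid receptor that pairs with CAR and PXR, was at 857, 723 and 674 CPM in knockout liver, against 568, 535 and 545 CPM in wild-type liver. Rxra rose by 0.44 ± 0.11 (SE; limma voom, adjusted p = 0.0146), and the call was lost without knockout library 1 (log2 difference 0.35, adjusted p = 0.0695) and in the fit that left out wild-type library 3 (0.44, adjusted p = 0.0667). Nr1i2, which encodes PXR, was at 85.1 ± 14.3 CPM in knockout and 79.9 ± 7.61 CPM in wild type (log2 difference 0.09 ± 0.14, limma voom, adjusted p = 0.691).

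**Figure D4:**
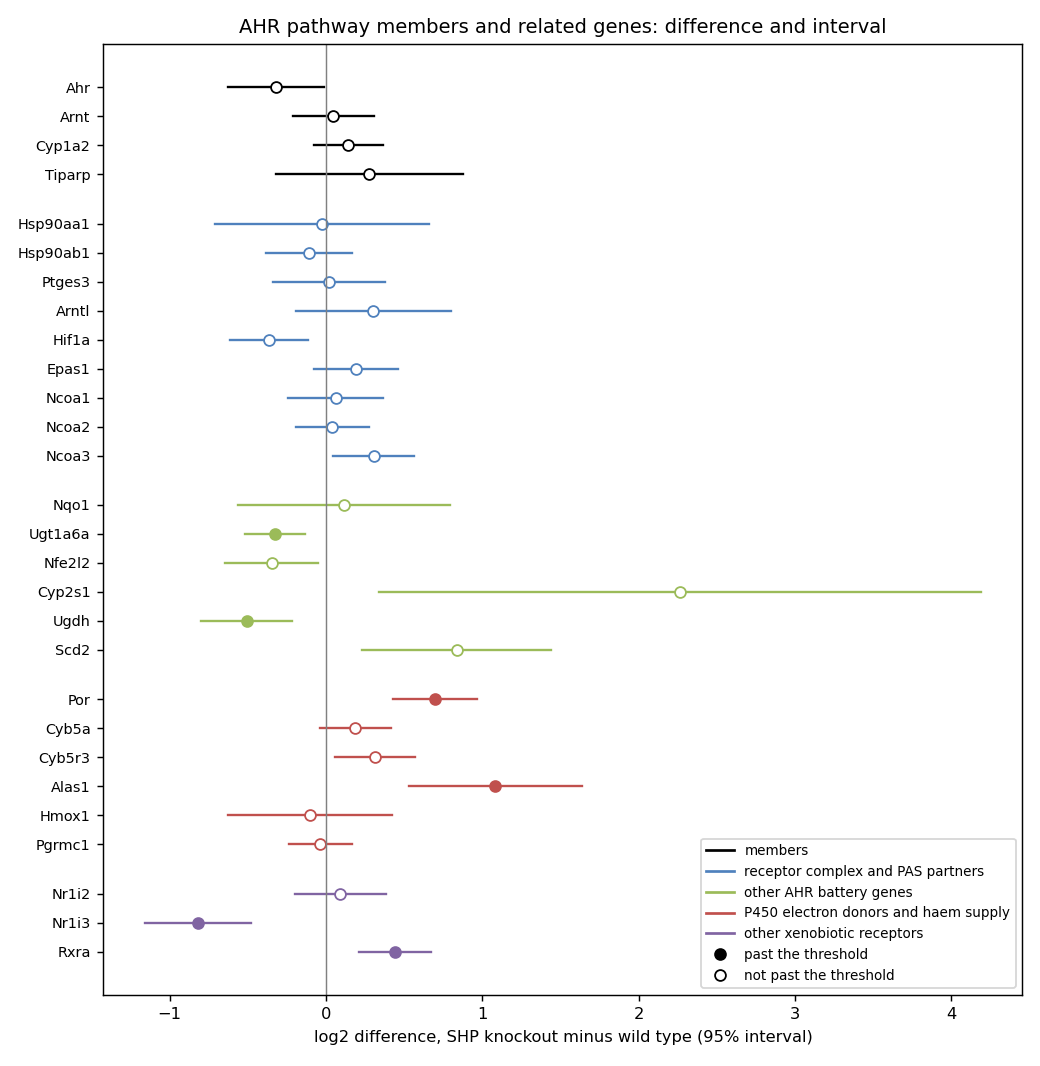
Log2 difference, knockout minus wild type, with its 95% interval from limma voom, for the 4 tested members in black and the tested genes of the 4 lists in colour, of which 1 is left out. Filled points passed an adjusted p under 0.05 and open points did not. No member is filled, and the 6 filled points are Ugt1a6a, Ugdh, Por, Alas1, Nr1i3 and Rxra.

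Whether the members vary together with other genes was described by Pearson's r of log2 CPM over the 6 libraries, against 9529 tested genes with a mean of at least 5 CPM. The libraries share their 2 genotypes, so r mixes differences between groups with differences within them. With only 6 libraries, the highest of 9529 values can come near 1 without a link between the genes, and no r was tested. An r above 0.9 was reached by 99 genes for Ahr, 48 for Arnt, 73 for Cyp1a2 and 35 for Tiparp. Nearest to Ahr were BX679674.1 (r = 0.995), Fastkd1 (0.988) and AC139042.1 (0.984). Nearest to Arnt were Tmem70 (0.992), Glt28d2 (0.990) and Utp20 (0.977), and nearest to Cyp1a2 were Ostm1 (0.992), Rpp14 (0.990) and Tjp3 (0.985). For Tiparp they were Tppp (0.991), Ankrd13c (0.981) and A230051G13Rik (0.971). No member was among the nearest genes of another.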

How the data were processed

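The submitters' processing notes name Novoalign 2.05.33 and build mm9. How reads were counted, on which strand, with which annotation and with what treatment of several alignments was not given in the sources used here. What the authors deposited were whole-number counts per gene and library, RPKM and log2 ratios of pooled groups, and scores for p and adjusted p, which were converted as Phred-scaled values. Of 33495 genes, 13901 had empty cells and stayed out of totals and tests. Since 4840 lines end early, count columns were treated as a general unit and negative binomial tools were not run. Counts with 0.5 added were fitted on genotype alone with voom, lmFit and eBayes (limma 3.58.1, R 4.3.3). A gene also needed a total of 15 counts. Scaling factors ran from 0.965 to 1.03, from code written for this work. The whole fit was run on simulated counts with changes drawn alike in both directions, which hardly tests the scaling itself. Python 3.11.15, pandas 2.3.3 and matplotlib 3.10.9 did the rest. Among counts from 1 to 19, 61.8% were even, so counts are not independent fragments. Limits from counts cover counting error only, and since they treat counts as independent they can be too low. Members, lists and rules were chosen with earlier results of these data known. Named list genes are those past the threshold and up to 2 most abundant others per list. Alternatives covered scaling, filters, variance models, a replicate block and each library left out. Aldh3a1 and Ugt1a6b were not analysed here, and 1 list gene is not reported here.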

Additional observations from a re-analysis of the deposited data

How the results depend on the processing

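Of the 4 tested members, none passed the threshold in any of 14 alternatives, and Ahr and Cyp1a2 kept their direction in all of them. Tiparp was at 0.0021 ± 0.27 (SE) without knockout library 2, where no direction can be read, and above 0 in the others. Over the fits that left out a library the log2 difference of Arnt ran from −0.029, without wild-type library 1, to 0.10. The same fits gave ranges on both sides of 0 for Hsp90ab1 (−0.22 to 0.048), Pgrmc1 (−0.072 to 0.034), Nr1i2 (−0.021 to 0.22) and Nqo1 (−0.025 to 0.31). The number of all genes called ran from 629, without wild-type library 3, to 1559 in those fits and was 1061 without knockout library 1, beside 1466 to 1871 under other settings. The list genes called numbered 2 to 6 in those fits, with 3 when wild-type library 2 was left out and 2 when wild-type library 3 was, and 5 to 7 under other settings. The cause was not tested. Over all tested genes, deviations of same-numbered libraries correlated at −0.019, −0.021 and −0.024. This shows no general pairing by replicate number but cannot exclude it for single genes. With the replicate number as a block 936 genes were higher and 842 lower, Ahr was at −0.31 (limma voom, adjusted p = 0.170), and Nr0b2 had an adjusted p of 0.0552. The block took the SE of Alas1 from 0.256 to 0.129 (limma voom, adjusted p = 0.000333) and that of Por from 0.124 to 0.097. For Ahr the SE went from 0.142 to 0.147. Depth limits Cyp1a1 and Cyp1b1, which had at most 16 counts in a library and were not tested.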
